A study of Mus musculus with 7 samples.

Results

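The genes described here are 9 transcription factors that mark territories of the embryo, taken as a list of names with no threshold on their values: Pitx1, Tbx4, Tbx5, En1, Pax9, Tbx1, Msx1, Msx2 and Alx4. They are 9 of the 55423 features in the count table and 9 of the 24433 genes that were tested, so every member passed the filter on low counts. The samples were cutaneous squamous cell carcinomas of mice in which tamoxifen-inducible Cre under the involucrin (Ivl) promoter acts in the IVL+ cells of the epidermis. The Ivl:BRAFV600E group carries the BRAFV600E oncogene, and the Ivl:BRAFV600E-SOX2LSL group carries the same oncogene plus an allele that expresses SOX2 with EGFP after recombination. Both groups received topical tamoxifen at 7 to 10 weeks of age per the labels (the methods of the study give a somewhat later range) and were kept until clinical endpoint. The libraries used here were 3 of each genotype, 1 per mouse, from 2 females and 1 male against 1 female and 2 males. Per the study, tumours arose sooner after induction in mice with SOX2 than in mice without it, so the time to collection may differ between the groups. Time since induction and genotype cannot be told apart.

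Limb, facial and oral territories are laid down in the embryo by transcription factors that are switched on in some regions and not in others. Pitx1 and Tbx4 act in the hindlimb bud and Tbx5 in the forelimb bud, while En1 marks the ventral limb ectoderm and is needed for the hairless skin of the paw and its eccrine glands. Pax9 and Tbx1 act in the pharyngeal arches and the developing mouth and teeth, and Msx1, Msx2 and Alx4 in facial and limb mesenchyme, with Msx2 also in the hair matrix. Adult skin keeps part of such positional expression, which differs between body sites. Per the study, Ivl:BRAFV600E mice developed lesions at several sites, the back, paws, ears and lips among them. The site of each sequenced tumour is not given in the sources used here, so site and genotype cannot be told apart.

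Promoter sequences are shown for Tbx1, En1 and Pax9, the members with the smallest p-values. RefSeq (GRCm38.p6) gave 7 windows for 6 of the members, each from 250 bases before to 50 bases after a transcription start, read 5′ to 3′ on the strand of the gene. Capitals mark the letters of the SOX core motif ACAAT on either strand (ATTGT when read on the strand shown). The windows are chr16:18590622-18590921 on the minus strand for Tbx1, at the annotated start of the gene, chr1:120602237-120602536 on the plus strand for En1, and chr12:56695221-56695520 on the plus strand for Pax9, at a start inside the annotated gene body.
Tbx1: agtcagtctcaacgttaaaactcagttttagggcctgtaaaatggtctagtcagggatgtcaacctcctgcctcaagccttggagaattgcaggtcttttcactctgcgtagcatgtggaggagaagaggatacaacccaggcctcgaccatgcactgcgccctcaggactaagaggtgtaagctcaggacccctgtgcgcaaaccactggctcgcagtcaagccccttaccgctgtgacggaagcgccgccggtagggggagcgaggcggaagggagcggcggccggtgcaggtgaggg
En1: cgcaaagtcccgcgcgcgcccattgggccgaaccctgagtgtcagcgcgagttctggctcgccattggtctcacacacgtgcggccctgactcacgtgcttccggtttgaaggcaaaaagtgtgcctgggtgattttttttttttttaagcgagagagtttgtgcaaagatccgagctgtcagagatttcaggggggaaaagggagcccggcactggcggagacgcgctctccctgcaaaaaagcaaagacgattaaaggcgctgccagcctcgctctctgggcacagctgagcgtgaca
Pax9: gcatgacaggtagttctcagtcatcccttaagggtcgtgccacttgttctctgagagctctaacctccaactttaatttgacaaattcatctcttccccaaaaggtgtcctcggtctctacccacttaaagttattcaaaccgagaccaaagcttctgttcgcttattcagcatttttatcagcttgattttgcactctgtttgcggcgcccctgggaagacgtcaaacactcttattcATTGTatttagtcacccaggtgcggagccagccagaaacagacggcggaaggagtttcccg
Of the 7 windows, 1 held ACAAT on either strand, that of Pax9, on the strand opposite to the gene and starting at position -11 from the RefSeq start. The same letters occur in 31% of all 32851 RefSeq windows of this length. The T-box core GGTGTGA and the homeodomain letters TAATCC were in 0 of the 7 windows, against 3.98% and 7.06% of all windows. The GC content was 58.3% in this Tbx1 window, 57.0% in that of En1 and 47.0% in that of Pax9, with a mean of 53.8% over all windows. A match is a description of the letters and not a binding site, and a window without a match says nothing about the factor.

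Expression is given as CPM (read counts per 1 M after TMM scaling of the libraries), and fold changes as log2 values of Ivl:BRAFV600E-SOX2LSL minus Ivl:BRAFV600E from edgeR's quasi-likelihood test, adjusted over all 24433 genes by the Benjamini-Hochberg method, with an adjusted p below 0.05 as the threshold. The libraries held between 23565432 and 31152826 counts on genes, and 3 counts, taken as the smallest level that can be told from 0, equalled 0.0839 to 0.143 CPM (counting error only). The labelled genotypes were checked on Sox2, at 0.238 to 0.716 CPM in Ivl:BRAFV600E and 155 to 182 CPM in Ivl:BRAFV600E-SOX2LSL tumours, and on EGFP, at 0 counts in the former and at least 847-fold higher in the latter (against the highest floor of a library). The epithelial label was checked on the keratinocyte markers, all 10 of which were detected, with Krt5 at 2371 to 3900 CPM and Trp63 at 261 to 321 CPM over the 6 tumours. This check covers presence and not amount. The 10 markers summed to 95430 to 128240 CPM in Ivl:BRAFV600E and 12329 to 45818 CPM in Ivl:BRAFV600E-SOX2LSL tumours. Skeletal muscle markers summed to 4.48 to 8.46 CPM in Ivl:BRAFV600E and 296 to 1302 CPM in Ivl:BRAFV600E-SOX2LSL tumours. All 16 tested were higher with SOX2 without overlap of the groups, and 12 of them passed the threshold. The tumours are numbered 1 to 3 in each group in column order, which carries no meaning.

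Among the 9 members, 1 passed the threshold, Tbx1, which fell; over all genes 3.90% passed, 2.39% higher and 1.51% lower in Ivl:BRAFV600E-SOX2LSL tumours. The groups did not overlap for 6 members, 2 of them higher (Pax9, Pitx1) and 4 lower (Tbx1, En1, Alx4, Msx2) in Ivl:BRAFV600E-SOX2LSL tumours. Over all genes 34.2% did not overlap, 18.2% higher and 16.0% lower. Tbx4, Tbx5 and Msx1 overlapped. At an unadjusted p below 0.05 there were 6 members, against 25.7% of all genes. The median log2 fold change was -0.62 over the members and 0.04 over all genes.

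**Figure D1:**
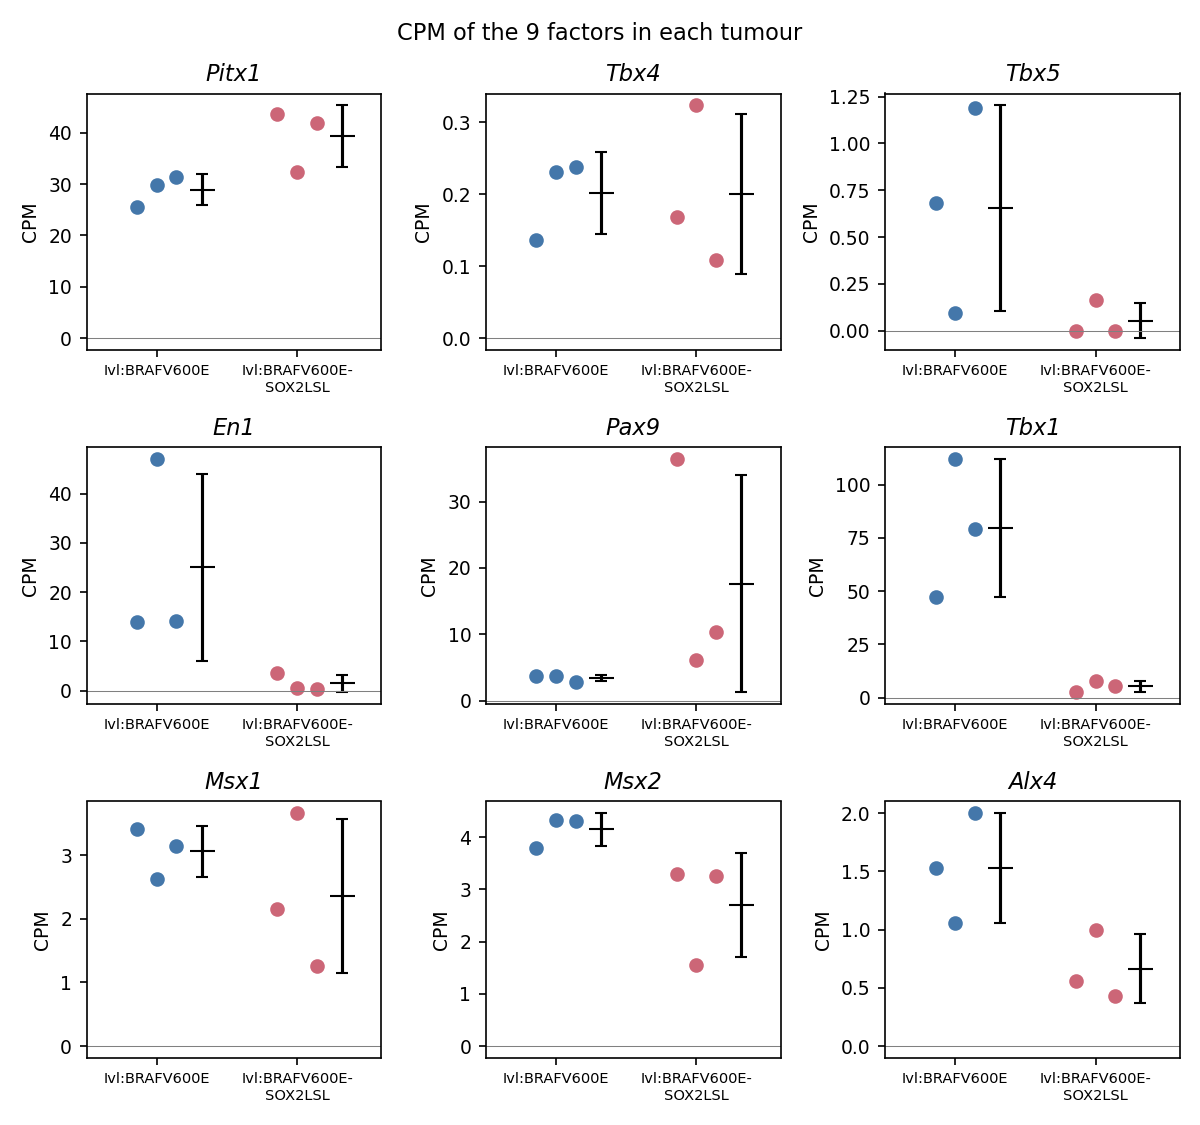
CPM of each factor (vertical axes, each with its own scale from 0) in the 3 Ivl:BRAFV600E tumours (blue) and the 3 Ivl:BRAFV600E-SOX2LSL tumours (red), with the mean and SD of each group in black. Tbx1 lay between 47.2 and 112 CPM without SOX2 and between 2.57 and 7.87 CPM with it, while Pax9 was above 3.68 CPM only in the tumours with SOX2.

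Among the oral and craniofacial factors, Tbx1 fell and Pax9 had its higher values in the other direction. Tbx1 is the T-box factor of the pharyngeal arches and is also expressed in tooth and hair follicle epithelium. It (ENSMUSG00000009097, chromosome 16, 18580979 to 18590671 on GRCm38, minus strand) had 47.2, 112 and 79.3 CPM in the Ivl:BRAFV600E tumours and 2.57, 7.87 and 5.31 CPM in the Ivl:BRAFV600E-SOX2LSL tumours. Every tumour without SOX2 was well above every tumour with it, and the means were 79.4 ± 32.2 and 5.25 ± 2.65 CPM (SD, n = 3 each), a 15.1-fold difference. The fit put this change at -3.92 on the log2 scale (standard error 0.49, edgeR adjusted p = 0.0168). These values rest on 92 to 2416 counts per tumour. The call was lost whenever an Ivl:BRAFV600E tumour was left out, with log2 fold changes of -4.19, -3.59 and -3.92 and edgeR adjusted p of 0.0726, 0.0584 and 0.0544 without tumours 1, 2 and 3. It held without each of the Ivl:BRAFV600E-SOX2LSL tumours. The call was also lost with the dermal fibroblast markers as a covariate in the edgeR fit (log2 fold change -3.44, adjusted p = 0.102) and with the skeletal muscle markers (-3.59, SE 2.17, adjusted p = 1), covariates of whose variance genotype accounted for 42.6% and 94.4%.

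Pax9, a paired-box factor of the pharyngeal pouches, tooth buds and palate that is also found in tongue and oral epithelium, had 3.68, 3.65 and 2.80 CPM in the Ivl:BRAFV600E tumours and 36.4, 6.15 and 10.4 CPM in the Ivl:BRAFV600E-SOX2LSL tumours. All tumours with SOX2 were above all tumours without it, and tumour 1 of that group stood far above the others. The fitted log2 fold change, 2.38 with a standard error of 0.64, did not pass (edgeR adjusted p = 0.0797). Without that tumour the difference was smaller and passed, at 1.29 (standard error 0.28, edgeR adjusted p = 0.0443), and it passed in none of the other 5 fits with a tumour removed (edgeR adjusted p of 0.0643 to 0.228). Pax9 (ENSMUSG00000001497, chromosome 12, 56691767 to 56712822, plus strand) shares 189 exonic bases with the antisense neighbour Slc25a21, which had 7, 7 and 2 counts against 74, 10 and 5, and whether the authors counted by strand is not stated.

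Among the limb factors, En1 had the largest difference of the 9 members on the log2 scale in the fit of all 6 tumours, though not in every other fit. Without Ivl:BRAFV600E tumour 2 it was -3.23, against -3.59 for Tbx1 and -4.01 for Tbx5. Tbx4 stayed near the floor, while Pitx1 was well expressed in every tumour. En1, the engrailed homeobox factor of the ventral limb ectoderm, had 14, 47.0 and 14.1 CPM in the Ivl:BRAFV600E tumours and 3.53, 0.583 and 0.325 CPM in the Ivl:BRAFV600E-SOX2LSL tumours. The groups did not overlap, although they spread widely, with means of 25.0 ± 19.1 and 1.48 ± 1.78 CPM (SD, n = 3 each). The log2 fold change of -4.05 (standard error 0.96) missed the threshold, with an edgeR adjusted p of 0.0618. Leaving out Ivl:BRAFV600E-SOX2LSL tumour 1, the one with 3.53 CPM, gave -5.76 (standard error 0.77, edgeR adjusted p = 0.0114). Leaving out Ivl:BRAFV600E tumour 2, the one with 47.0 CPM, gave -3.23 (edgeR adjusted p = 0.166), and En1 passed in 1 of the 6 such fits. En1 (ENSMUSG00000058665) lies on chromosome 1, 120602418 to 120607992, plus strand.

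Pitx1, the paired-like homeobox factor of the hindlimb and of the oral ectoderm, had 25.6, 29.8 and 31.4 CPM in Ivl:BRAFV600E and 43.7, 32.4 and 41.9 CPM in Ivl:BRAFV600E-SOX2LSL tumours. Its values were close in all 6 tumours, with the lowest tumour with SOX2 just above the highest without it. This difference of 0.44 on the log2 scale (standard error 0.16) missed the threshold (edgeR adjusted p = 0.145). Pitx1 (ENSMUSG00000021506, chromosome 13, 55825051 to 55836192, minus strand) shares 165 exonic bases with the antisense gene Gm47071, which had 11.5, 11.5 and 11.9 CPM against 2.99, 8.88 and 8.99 CPM, and 108 with the lincRNA gene Gm28760, which had at most 1 count.

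Tbx4, the T-box factor that follows Pitx1 in the hindlimb bud, had 4, 5 and 5 counts in Ivl:BRAFV600E tumours and 6, 10 and 3 counts in Ivl:BRAFV600E-SOX2LSL tumours. These are at or a little above the floor of 3 counts in both groups, so no difference was detectable at this depth (log2 fold change 0.01, standard error 0.63, edgeR adjusted p = 0.994). Tbx5, its forelimb counterpart, had 20, 2 and 25 counts against 0, 5 and 0 counts. The groups overlapped, because 1 Ivl:BRAFV600E tumour had 2 counts and 1 Ivl:BRAFV600E-SOX2LSL tumour had 5. The fit gave -3.50 on the log2 scale with a standard error of 1.31 (edgeR adjusted p = 0.152). Without the Ivl:BRAFV600E-SOX2LSL tumour that had 5 counts, tumour 2, the fit gave -7.16, a value that depends on the prior count because the remaining tumours had 0, and over the fits with 1 tumour removed it ran from -7.16 to -2.79. Tbx4 (ENSMUSG00000000094) is on chromosome 11, 85886422 to 85916097, and Tbx5 (ENSMUSG00000018263) on chromosome 5, 119832668 to 119885219.

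The Msx factors and Alx4 were low and did not pass. Msx2 (ENSMUSG00000021469, chromosome 13, 53466884 to 53473074), a homeobox target of BMP signalling, had 3.79, 4.34 and 4.32 CPM in Ivl:BRAFV600E tumours and 3.30, 1.55 and 3.25 CPM in Ivl:BRAFV600E-SOX2LSL tumours. Its groups were close but did not overlap (log2 fold change -0.62, standard error 0.33, edgeR adjusted p = 0.283). Msx1 (ENSMUSG00000048450, chromosome 5, 37820485 to 37824583), its paralog in tooth and palate mesenchyme, had 3.41, 2.63 and 3.14 CPM against 2.15, 3.66 and 1.26 CPM. Here the highest value belonged to a tumour with SOX2, and the groups overlapped (log2 fold change -0.37, standard error 0.40, edgeR adjusted p = 0.589). Alx4 (ENSMUSG00000040310, chromosome 2, 93642384 to 93681339), an aristaless-like factor of skull and limb mesenchyme, had 1.53, 1.06 and 2.0 CPM against 0.560, 1.0 and 0.433 CPM, or 12 to 45 counts. The lowest tumour without SOX2 was just above the highest with it (log2 fold change -1.19, standard error 0.44, edgeR adjusted p = 0.148).

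**Figure D2:**
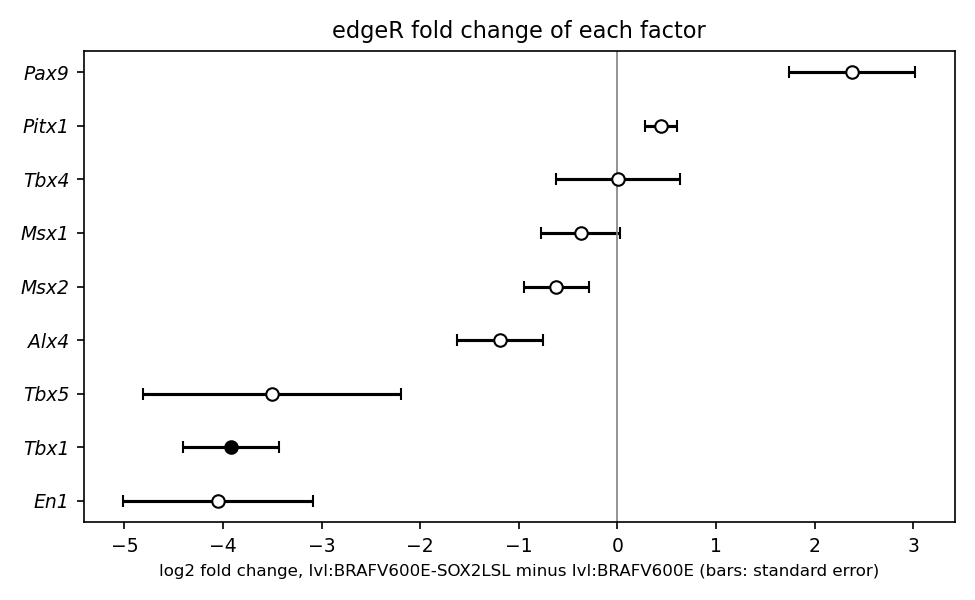
Fold change of each factor on the log2 scale (horizontal axis, Ivl:BRAFV600E-SOX2LSL minus Ivl:BRAFV600E) with its standard error as a bar, 3 tumours per group; the filled point has an adjusted p below 0.05. Tbx1 at -3.92 is the only filled point, although En1 at -4.05 lies further from 0 with a standard error of 0.96.

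**Figure D3:**
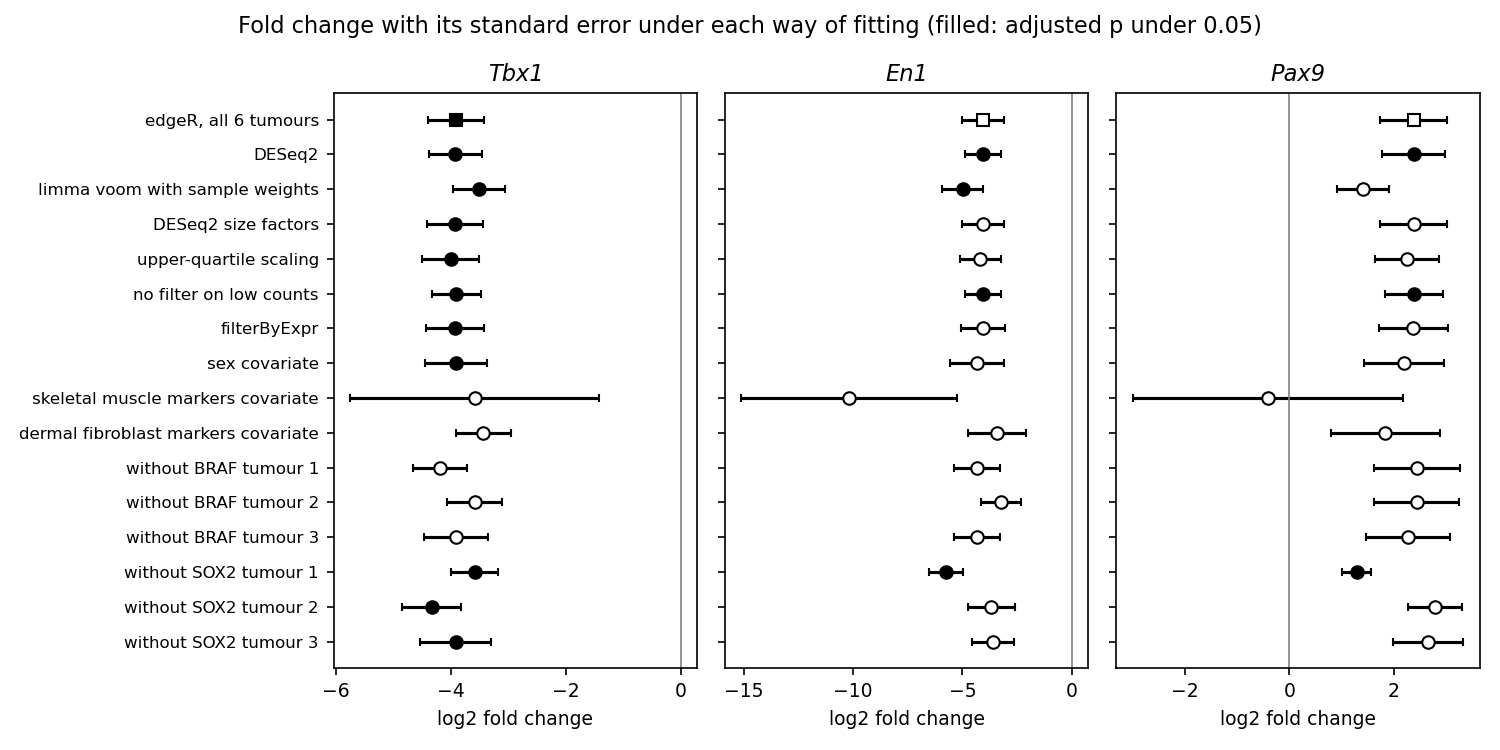
Fold change of Tbx1, En1 and Pax9 on the log2 scale (horizontal axes) with its standard error, for the fit of all 6 tumours (square) and each other way of fitting (circles); filled points have an adjusted p below 0.05. The points stay on 1 side of 0 for Tbx1 and En1, and cross it for Pax9 with the skeletal muscle covariate (-0.41, standard error 2.59).

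Divided by the length of the merged exons, the levels of the members can be set beside each other as CPM per kb. In Ivl:BRAFV600E tumours the order of the means was Tbx1 at 22.6 ± 9.16, Pitx1 at 10.9 ± 1.13, En1 at 9.54 ± 7.26, Msx2 at 1.27 ± 0.0964, Msx1 at 0.988 ± 0.127, Pax9 at 0.668 ± 0.0986, Alx4 at 0.217 ± 0.0661, Tbx5 at 0.140 ± 0.117 and Tbx4 at 0.0593 ± 0.0166 CPM per kb (SD, n = 3 each). The ranges of Pitx1 and En1 overlapped, as did those of Alx4 and Tbx5 and of Tbx5 and Tbx4, while the other neighbours in this order did not overlap. In Ivl:BRAFV600E-SOX2LSL tumours Pitx1 led with 14.8 ± 2.28 CPM per kb, followed by Pax9 at 3.49 ± 3.24, Tbx1 at 1.49 ± 0.753, Msx2 at 0.824 ± 0.303, Msx1 at 0.762 ± 0.391 and En1 at 0.563 ± 0.678 CPM per kb. Alx4 at 0.0943 ± 0.0425, Tbx4 at 0.0588 ± 0.0327 and Tbx5 at 0.0115 ± 0.0200 CPM per kb came last. From Pax9 to Tbx5 each neighbour in this order overlapped the next. With the longest transcript as the length, Msx1 and Msx2 changed places in the tumours with SOX2, and in Ivl:BRAFV600E tumours Msx1 stood at 1.58 ± 0.204 CPM per kb (SD, n = 3) and overlapped Msx2 at 1.69 ± 0.129.

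**Figure D4:**
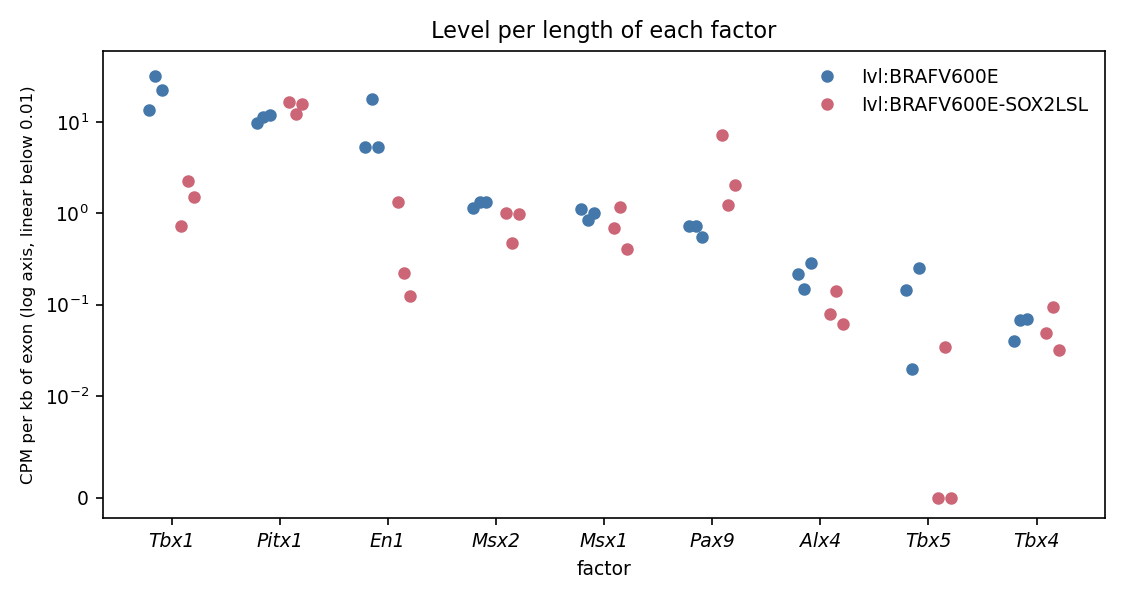
Level per length of each factor, in CPM per kb of exon (vertical axis, logarithmic and linear below 0.01), in every tumour of Ivl:BRAFV600E (blue) and Ivl:BRAFV600E-SOX2LSL (red), factors ordered by their mean in Ivl:BRAFV600E. Pitx1 holds between 9.63 and 16.5 CPM per kb in all 6 tumours, and 2 tumours with SOX2 have no count of Tbx5.

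Genes that share the limb territories were read from lists around the members. The lists include the members themselves. To set beside the counts of these and the later lists, 3.90% of all genes passed, 2.39% higher and 1.51% lower in Ivl:BRAFV600E-SOX2LSL tumours. Of 7 tested hindlimb genes, 3 passed, all lower in Ivl:BRAFV600E-SOX2LSL tumours, and the median log2 fold change was -3.78, against 0.04 over all genes. The 3 were the posterior Hox genes Hoxc10, Hoxc11 and Hoxc12, which set position along the body axis and the limb. They lie close together on chromosome 15, and the list did not move as a whole. Pitx1 (log2 fold change 0.44) and Isl1 were higher with SOX2 and did not pass. Isl1, named after its values were seen, had 0, 0 and 1 counts against 16, 20 and 3 counts (log2 fold change 4.45, edgeR adjusted p = 0.0797). Hoxc12 had 2.66, 2.82 and 3.99 CPM in Ivl:BRAFV600E and 0 counts in the 3 Ivl:BRAFV600E-SOX2LSL tumours, at least 29.1-fold lower (edgeR adjusted p = 0.00927). Hoxc10 and Hoxc11 reached 13.9 and 27.3 CPM without SOX2 and at most 1 and 0 counts with it (edgeR adjusted p = 0.00184 and 0.00320), and Hoxc10 shares 166 exonic bases with Hoxc5. Of 5 forelimb genes, 0 passed by edgeR or DESeq2, 1 by limma and 1 at an unadjusted p below 0.05, and the named ones, Hoxc4 and Hoxc6, overlapped between the groups. Hoxc4 had 1.67, 2.26 and 2.42 CPM against 10.3, 0.745 and 1.55 CPM, and Hoxc6 had 2.80, 2.86 and 2.99 CPM against 9.68, 0 and 0 CPM, so that Ivl:BRAFV600E-SOX2LSL tumour 1 was above and the other tumours of its group below every tumour without SOX2. Of 13 distal limb genes 1 passed by edgeR, 5 by DESeq2, 2 by limma and 8 at an unadjusted p below 0.05. The edgeR call was Hoxa13, with 1.19, 0.739 and 0.998 CPM against 0 counts in every tumour with SOX2, at least 9.02-fold lower (edgeR adjusted p = 0.0238). Sp8 of the limb ectoderm, at 39.8, 0.277 and 13.1 CPM against at most 0.0648 CPM, did not pass (edgeR adjusted p = 0.0504). Grem1, a BMP antagonist, went the other way, with 3.65, 1.71 and 4.04 CPM against 106, 3.53 and 18.2 CPM. Its groups overlapped and it did not pass (log2 fold change 3.76, edgeR adjusted p = 0.103). With 1 tumour removed at a time, Hoxc10 and Hoxc11 passed in 6 of 6 fits, Hoxc12 in 4 (lost without Ivl:BRAFV600E tumour 1 or 2) and Hoxa13 in 3 (lost without any Ivl:BRAFV600E tumour).

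On the ventral side, 0 of 5 dorsoventral limb genes passed by edgeR, 3 by DESeq2 and by limma and 3 at an unadjusted p below 0.05. The most abundant, the BMP receptor gene Bmpr1a and the ligand gene Wnt5a, had log2 fold changes of -0.44 and -1.18 (edgeR adjusted p = 0.0940 and 0.0662). Of 12 tested genes of volar skin, the thick skin of the paw pads, and its eccrine glands, 2 passed, both lower, and the median log2 fold change was -1.04. Krt9, the keratin of thick palm and sole skin, had 13.6, 390 and 378 CPM without SOX2 and at most 3 counts with it (edgeR adjusted p = 0.0209). Aqp5, a water channel of gland cells, had 280, 271 and 149 CPM against 3.22, 18.7 and 24.3 CPM (log2 fold change -3.92, standard error 0.71, edgeR adjusted p = 0.0350). Leaving out 1 tumour at a time kept the call in 2 of 6 fits for Krt9 and in 1 of 6 for Aqp5, which passed only without Ivl:BRAFV600E-SOX2LSL tumour 1. En1 was close in Ivl:BRAFV600E tumours 1 and 3, at 14 and 14.1 CPM, where Krt9 stood at 13.6 and 378 CPM. Krt77, an eccrine duct keratin named after its values were seen, had 0.273, 0.231 and 0.903 CPM against 41.2, 0.259 and 12.3 CPM and did not pass (log2 fold change 5.27, edgeR adjusted p = 0.0967).

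For the face and mouth, 2 of 29 tested craniofacial and oral factors passed by edgeR, both lower, with a median log2 fold change of -0.37. Over all genes 3.90% passed. By DESeq2 7 of these factors passed, by limma 4, and 12 were at an unadjusted p below 0.05. Beside Tbx1 the edgeR call was Dlx2, a distal-less homeobox factor of the branchial arches, with 15.5, 22.6 and 12.2 CPM against 0.196, 0.939 and 1.12 CPM (log2 fold change -4.49, standard error 0.60, edgeR adjusted p = 0.0196). Of 7 genes of oral mucosa 2 passed, both lower. They were Krt24, at 45.6, 74.0 and 94.9 CPM against at most 1.19 CPM (edgeR adjusted p = 0.0206), and Krt76, a keratin of the palate, at 2.05, 3.0 and 0.855 CPM against 0.0839, 0.259 and 0.144 CPM (edgeR adjusted p = 0.0335). With 1 tumour left out at a time, Dlx2 and Krt76 passed in 2 of 6 fits and Krt24 in 3, and all 3 genes lost the call without Ivl:BRAFV600E tumour 1 or 2. Krt13, a keratin of oral and oesophageal lining named after its values were seen, had 2.86, 28.6 and 3.04 CPM against 158, 236 and 96.4 CPM and did not pass (log2 fold change 3.83, edgeR adjusted p = 0.0707), so that the highest levels of Pax9 and of Krt13 were in different tumours with SOX2. Salivary and mucous gland markers had 0 of 4 tested genes past the threshold by edgeR, DESeq2 and limma and 1 at an unadjusted p below 0.05, and 2 of the 6 listed were at 0 in every tumour.

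**Figure D5:**
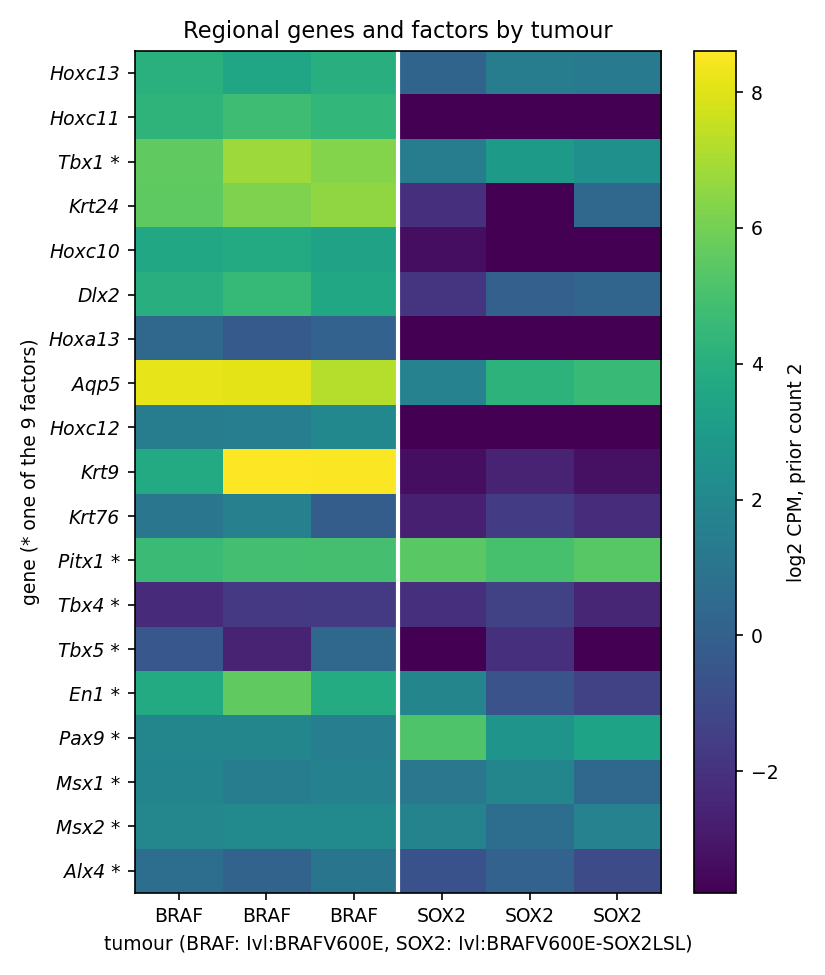
Log2 CPM (colour, prior count of 2) of the 9 factors (marked *) and of the genes past the threshold in the limb, volar, oral and hair lists, in each tumour (columns). The genes in the upper rows, all past the threshold, are darker in the 3 Ivl:BRAFV600E-SOX2LSL columns, and Hoxc11, Hoxc12 and Hoxa13 have 0 counts there.

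In the hair matrix list 1 of 14 genes passed, against 3.90% of all genes. This was Hoxc13, a hair shaft regulator, which fell, with 16.7, 11.7 and 16.3 CPM against 1.09, 2.56 and 2.49 CPM (log2 fold change -2.86, standard error 0.36, edgeR adjusted p = 0.0175, lost without any of the Ivl:BRAFV600E tumours). The most abundant genes of this list, Ovol1 and Cux1, had log2 fold changes of -0.69 and 0.75 and did not pass (edgeR adjusted p = 0.304 and 0.0561). In the BMP pathway, which acts up- and downstream of Msx1, Msx2 and Pax9, 1 of 19 genes passed, against 3.90% of all genes. It was the inhibitory Smad7, which rose (42.6, 59.7 and 50.2 CPM against 93.9, 105 and 77.2 CPM, log2 fold change 0.86, edgeR adjusted p = 0.0467). This call held in 1 of 6 fits with a tumour removed. The receptor gene Bmpr2 had a log2 fold change of -0.20 (edgeR adjusted p = 0.350). Among the FGF and WNT genes that follow Tbx4 and Tbx5 in the limb bud, 0 of 6 passed by edgeR or limma, 1 by DESeq2 and 1 at an unadjusted p below 0.05, and the most abundant, Fgfr2 and Wnt3, had log2 fold changes of -0.09 and 0.32. The gene at an unadjusted p below 0.05 was Sall4, named after its values were seen. It had 0 counts in every Ivl:BRAFV600E tumour and 361, 7 and 21 counts in the Ivl:BRAFV600E-SOX2LSL tumours (edgeR adjusted p = 0.11).

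Of the 12 tested T-box genes 1 passed by edgeR and by limma (Tbx1 in both), 4 by DESeq2 and 5 at an unadjusted p below 0.05. Tbx2, named after its values were seen, had 2.32, 1.52 and 2.0 CPM against 1.96, 21.6 and 29.1 CPM (log2 fold change 3.17, edgeR adjusted p = 0.0815), and the most abundant, Mga, had a log2 fold change of 0.13 (edgeR adjusted p = 0.602). Of the 6 tested Pax genes 0 passed by edgeR or limma, 1 by DESeq2 (Pax9) and 2 at an unadjusted p below 0.05, and Pax8, the next most abundant after Pax9, had 0.648, 0.323 and 0.523 CPM against 4.53, 0.421 and 0.325 CPM. Of the 11 Pitx, Msx, En and Alx genes 0 passed by edgeR, 2 by DESeq2, 1 by limma and 5 at an unadjusted p below 0.05.

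The genes whose pattern over the 6 tumours was most like that of a member were taken among 14429 other genes with a mean of at least 1 CPM, by the root-mean-square difference of log2 CPM after centring each gene. For Tbx1 they were Defb4, Osbp2 and Ces1h, at differences of 0.47, 0.48 and 0.50. For En1 they were Hoxc9, Rhcg and Ano2 at 0.69, 0.70 and 0.98, with Hoxc9 at 4.60, 4.62 and 4.23 CPM without SOX2 and 0.923, 0 and 0 CPM with it. Pax9 was nearest to Dusp4, Slc16a11 and Marveld3 at 0.19, 0.22 and 0.23, and Dusp4, a phosphatase induced by MAPK signalling, had 4.91, 5.77 and 3.42 CPM against 40.5, 8.10 and 10.8 CPM. For the members with small differences the nearest genes lay at 0.06 for Pitx1 (Crtap, Spint2, Enkd1), 0.15 to 0.19 for Msx1 (Zfp932, Nr3c2, Lrr1), 0.18 to 0.19 for Msx2 (Srrm4, Rps2, Ciart) and 0.23 to 0.28 for Alx4 (Rbm20, 1700023H06Rik, Gm20696). Within 250 kb of the members 62 further genes were tested, and 0 passed by edgeR at the adjusted threshold (19 at an unadjusted p below 0.05, 10 by DESeq2, 2 by limma), the neighbours of Tbx1 among them (0 of 16).

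Markers of other cells were read the same way, and skeletal muscle was the list of them in which most genes passed. In bulk tumours, fewer cells of a type and less RNA per cell cannot be told apart. The 10 keratinocyte markers summed to 95430 to 128240 CPM in Ivl:BRAFV600E and 12329 to 45818 CPM in Ivl:BRAFV600E-SOX2LSL tumours, with 1 of them, Dsg1a, past the threshold and lower (edgeR adjusted p = 0.0491, kept in 1 of 6 fits with a tumour removed). Krt14 and Krt1 had log2 fold changes of -0.65 and -2.24 and did not pass. The 11 dermal fibroblast markers, such as Col1a1 and Col3a1, summed to 852 to 5323 CPM against 4236 to 8812 CPM, and 0 passed by edgeR (3 by DESeq2, 1 by limma, 4 at an unadjusted p below 0.05). Of the muscle markers, Acta1 reached at most 0.570 CPM without SOX2 and was at 55.0 to 340 CPM with it, and Atp2a1, Myl1 and Tnnt3 also rose (edgeR adjusted p = 0.00708, 0.00775 and 0.0108). With 1 tumour removed at a time, Atp2a1 kept its call in 5 of 6 fits, Acta1 and Myl1 in 4 and Tnnt3 in 3, each loss coming without an Ivl:BRAFV600E tumour. Myh4 and Myog had 0 counts in every tumour without SOX2. Of 6 tested immune markers 1 rose, Ptprc (edgeR adjusted p = 0.0483, kept in 1 of 6 fits with a tumour removed), with sums of 222 to 738 CPM against 495 to 1146 CPM; S100a8 and Lyz2 did not pass. Endothelial, melanocyte and adipocyte markers had 0 of 5 past the edgeR threshold in each list (1 endothelial gene by DESeq2 and by limma, and 2, 1 and 2 genes at an unadjusted p below 0.05), with Pecam1, Vwf, Mitf, Pmel, Plin1 and Fabp4 among them. Plin1 was at 8.37 CPM in Ivl:BRAFV600E-SOX2LSL tumour 1 and at most 0.285 CPM elsewhere, and this tumour also had the highest Pax9. The part of these cells in the values of the members was not tested.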

How the data were processed

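Bulk RNA of skin tumours, depleted of ribosomal RNA, was sequenced. The authors first checked reads with FastQC 0.11.8, trimmed them with Trim Galore, aligned them to GRCm38 with HISAT2 2.1.0 and counted them per gene with featureCounts (Subread 1.6.3), per the labels and methods. They deposited raw counts per gene, neither normalised nor pooled. Strand and multimapping settings are not stated, so genes with shared exons are uncertain.

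The labels list 4 Ivl:BRAFV600E and 3 Ivl:BRAFV600E-SOX2LSL samples without naming the mice, and 6 of the 7 columns were assigned by mouse name through the study's list of mice, which also gives their sex; 1 column was not used because its group is uncertain. The filter of the study was used, 5 reads or more in 1 tumour or more. Libraries were scaled by TMM and compared with edgeR 4.0.16 (R 4.3.3), tested on simulated data before use. Alternatives were DESeq2 1.42.0, limma 3.58.1 (voom, sample weights), other scalings and filters, sex, skeletal muscle or dermal fibroblast markers as a covariate, and each tumour left out. P-values measure the spread between 3 tumours per group, and an exact permutation test of 3 against 3 cannot go below p = 0.1. Lengths and positions came from GENCODE on GRCm38, and promoter sequences from RefSeq. Further tools were matplotlib 3.10.9, pandas 2.3.3 and Python 3.11.15.

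The members and the gene lists were chosen with earlier results of these data known. All 9 members are named. From each list at most 4 genes past the threshold with the smallest p are named or, where fewer than 2 passed, up to 2 with the highest mean CPM. Genes outside this rule are marked as named after their values were seen, apart from Krt5, Trp63, Myh4, Myog and Hoxc9, which serve as marker levels or as a nearest pattern. One listed gene is not reported here.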

Additional observations from a re-analysis of the deposited data

How the results depend on the processing

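No paired analysis was possible because the columns of the count table carry no replicate numbers. In place of 954 genes, DESeq2 called 3653, limma 2142, edgeR without a filter on low counts 1759, with sex as a covariate 228, with dermal fibroblast markers 26 and with skeletal muscle markers 0 (genotype accounted for 42.6% and 94.4% of the variance of the last 2 covariates), and leaving out a tumour gave 22 to 1575. In place of 1 member, DESeq2 and the fit without a filter called 3 (Tbx1, En1, Pax9), limma 2 (Tbx1, En1), the dermal fibroblast covariate 0 and the skeletal muscle covariate 0, and leaving out a tumour gave 0 to 3. The adjusted p of Tbx1 was 0.102 with the fibroblast covariate, and over all 15 alternatives its log2 fold change lay between -4.34 and -3.44 and it was called in 10. That of En1 lay between -10.18 and -3.23, called in 4. The adjusted p over these alternatives ran from 5.0e-15 to 1 for Tbx1, from 2.4e-05 to 1 for En1 and from 0.00151 to 1 for Pax9. With the muscle covariate the fold change turned to -0.41 for Pax9 (edgeR adjusted p = 1) and to 0.13 for Msx2. The fold change of Tbx4, near 0 (0.01 with all tumours), turned to -3.16 with the muscle covariate, -0.30 with sex, -0.09 with upper-quartile scaling, -0.22 without Ivl:BRAFV600E tumour 1 and -0.50 without Ivl:BRAFV600E-SOX2LSL tumour 2, and ranged from -0.50 to 0.29 over the fits without a tumour. The cause of these changes was not tested. With AACAAT or ACAAAG in place of ACAAT, 0 of the 7 promoter windows held either, against 1 before, while 27% of all 32851 windows hold at least 1 of these longer letters. The other 6 members kept their direction in every alternative that tested them; edgeR's filterByExpr left out Tbx4 and Tbx5. Depth limits the statements on Tbx4, Tbx5 and Alx4, and the small number of tumours those on the rest.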
